A study of Mus musculus with 14 samples.

Results

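The genes examined were Ung, Neil1, Apex1, Apex2, Msh6, Exo1 and Polh, 7 of the 41053 gene rows in each of 2 mouse count tables, chosen by name as factors that act on the DNA damage made during antibody gene mutation. The choice was made with earlier results of these data known, so shares of the 7 that were called are descriptions only. RNA of the 7 genes was measured by RNA sequencing in 14 libraries. The groups were B cells labelled Tet2 knock-down (shTet2; lymphoma B cells by the study's design; n = 2), B cells labelled Tet2 wild-type that served as the lymphoma control (n = 5), germinal center (GC) B cells labelled Tet2 knock-out (KO; n = 4), and GC B cells labelled Tet2 wild-type (WT; n = 3). All were C57BL/6 spleen cells, and no label gives the age of the mice. The sources used here do not give the sort that purified the GC B cells, the Tet2 exons removed, the origin of the lymphoma or the hairpin of the control. Tet2 encodes a dioxygenase whose substrate is 5-methylcytosine. No label says that the libraries of a group came from separate animals, so p-values measure only the spread between these libraries.

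GC B cells change their antibody genes on purpose. Activation-induced deaminase (AID) turns cytosine into uracil in antibody gene DNA, and the resulting mismatch can be copied as it stands or handed to repair. In base excision repair, the glycosylase encoded by Ung removes the uracil and an endonuclease encoded by Apex1 or Apex2 cuts the DNA at the empty site. In mismatch repair, Msh6 encodes part of the heterodimer that binds the mismatch, Exo1 encodes the exonuclease that removes the strand around it, and Polh encodes DNA polymerase eta, which refills the gap with errors mostly at A and T. Neil1 encodes a glycosylase that removes oxidised bases. Both routes lead to hypermutation and to the breaks of class switching.

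The 7 genes lie on 6 chromosomes in the files' annotation (GRCm38). Ung is at chr5:114130386-114139323 on the plus strand, Neil1 at chr9:57142800-57148305 on the minus strand, and Exo1 at chr1:175880778-175911396 on the plus strand. Both Msh6 (chr17:87975050-87990883, plus strand) and Polh (chr17:46172004-46202625, minus strand) are on chromosome 17. Apex2 lies at chrX:150519519-150589868 on the minus strand, and 4.96% of its exon bases are shared with Alas2 or Pfkfb1. Apex1 lies at chr14:50924968-50927139 on the plus strand, and 877 of its 1422 exon bases, 61.7%, are also exon of Tmem55b on the other strand. The counting command had no strand option, and reads that touch 2 genes are left out by the counter's default. Levels of Apex1 are therefore uncertain.

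Promoter sequence was read for the members because the Tet2 protein acts on methylated CpG, although methylation was not measured here. RefSeq (GRCm38.p6) windows were found for 5 of the 7 genes, not for Apex2 and Exo1. Those of Apex1 and Polh begin within exons of the neighbouring genes Osgep and Xpo5 and are not shown. The 3 printed below run 5′ to 3′ on the gene's own strand up to its first exon, with each CpG in capitals. They are Ung at chr5:114130185-114130385 (plus strand, 201 bases), Neil1 at chr9:57148306-57148555 (minus strand, 250 bases) and Msh6 at chr17:87974800-87975049 (plus strand, 250 bases).
Ung: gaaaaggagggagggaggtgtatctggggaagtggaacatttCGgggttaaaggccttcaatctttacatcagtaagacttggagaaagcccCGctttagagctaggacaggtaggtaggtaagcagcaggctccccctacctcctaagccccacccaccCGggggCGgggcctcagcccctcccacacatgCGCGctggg
Neil1: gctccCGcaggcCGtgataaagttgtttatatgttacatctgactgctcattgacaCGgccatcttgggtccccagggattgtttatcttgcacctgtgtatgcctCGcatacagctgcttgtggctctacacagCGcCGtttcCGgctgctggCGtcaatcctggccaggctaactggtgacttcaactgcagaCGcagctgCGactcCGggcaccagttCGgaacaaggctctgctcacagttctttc
Msh6: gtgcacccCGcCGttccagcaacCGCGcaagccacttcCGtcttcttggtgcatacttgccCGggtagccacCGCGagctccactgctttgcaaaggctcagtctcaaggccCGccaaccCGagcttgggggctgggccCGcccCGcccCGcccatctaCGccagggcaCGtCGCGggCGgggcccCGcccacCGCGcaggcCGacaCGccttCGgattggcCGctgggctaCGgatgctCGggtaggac
The stretches shown held 6 CpG for Ung, 12 for Neil1 and 27 for Msh6. Over the full 250-base RefSeq windows, Ung had 10, Apex1 28 and Polh 35. These windows include exon bases of the files' annotation: 49 of Ung itself, 195 of Osgep for Apex1 and 37 of Xpo5 for Polh. Across 32851 mouse promoters of the same length the median was 6, with quartiles at 2 and 16, so Ung and Neil1 lay within the quartiles and Msh6, Apex1 and Polh above them. GGGCGG, the core of the motif bound by Sp1 family factors, itself holds a CpG. In the 250-base windows it was found on either strand 5 times in Msh6, 2 times in Ung (1 of them in the stretch shown), once in Apex1, once in Polh and not in Neil1. It occurred in 32.7% of all promoters. CCAAT was found once in Msh6 and once in Apex1 (33.8% of all promoters), CACGTG once in Apex1 (6.02%), and TTTNNCGC in none of the 5 (4.28%). A match describes letters in the window and not a bound site.

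Sequencing was deep in GC B cells and shallow in lymphoma cells. Pairs of shTet2 values are given as replicate 1, then replicate 2. Total counts were 14741588 and 9386084 in shTet2, 6691167 to 18598386 in control lymphoma, 29487244 to 30330950 in the KO group and 27191862 to 30434184 in the WT group. Structural RNA rows (a hand-picked list of abundant non-coding and ribosomal RNA names) took 54% and 45% of shTet2 counts. They took 57.5% to 80.7% of control lymphoma counts and at most 1.32% in GC B cells, which left control lymphoma replicate 2 with 1525920 other counts. Levels are given as CPM, reads per 1000000 of a library size scaled over all 14 libraries. Tet2 itself stood at 86 and 79.4 CPM in shTet2 against 89 to 105 CPM in control lymphoma (log2 difference -0.21, SE 0.10, adjusted p = 0.295), and at 7.79 to 9.53 CPM in KO against 7.53 to 8.95 CPM in WT (0.04, SE 0.13, adjusted p = 0.909). Counts over all exons do not test a deletion of some of them, so Tet2 counts do not check the knock-out label, and the knock-down did not pass the test. Directions below are between libraries as labelled. In these bulk samples, fewer cells of a type and less RNA per cell cannot be told apart. All 5 B cell markers listed were detected in all 4 groups. Their summed levels were 2926 and 2567 CPM in shTet2, 2783 to 3145 CPM in control lymphoma, 4249 to 4649 CPM in KO and 4250 to 4552 CPM in WT. GC B cell markers (8 of 9 names found) summed to 289 and 353 CPM in shTet2, 178 to 229 CPM in control lymphoma, 1409 to 1513 CPM in KO and 1255 to 1527 CPM in WT.

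The order of the 7 genes, read per kilobase of exon, differed between the 2 kinds of cell. In KO GC B cells Neil1 was highest at 324 ± 11.4 CPM per kilobase, followed by Polh (44.9 ± 2.3), Msh6 (39.3 ± 3.07), Ung (16.9 ± 1.05), Apex1 (9.21 ± 0.646), Exo1 (6.45 ± 0.712) and Apex2 (2.06 ± 0.13; SD, n = 4), with no neighbours overlapping. In WT GC B cells the order by mean CPM per kilobase was the same, with Neil1 at 280 ± 5.39 and Apex2 at 1.91 ± 0.0985 (SD, n = 3), and only Polh (42.7 ± 8.6) and Msh6 (39.3 ± 4.25) overlapped. The glycosylase for oxidised bases thus stood 19.2-fold above the uracil glycosylase in KO and 16.7-fold above it in WT cells. In both lymphoma groups Msh6 came first, at 15.1 ± 1.96 CPM per kilobase in shTet2 (SD, n = 2) and 12.8 ± 1.29 in control (SD, n = 5). Neil1 came next, at 12.7 ± 0.185 CPM per kilobase in shTet2 and 7.58 ± 1.02 in control, then Polh at 11.3 ± 1.25 in shTet2 and 6.81 ± 0.951 in control. Neil1 and Polh overlapped in control cells and not in shTet2 cells. Neil1 stood only 3.23-fold above Ung in shTet2 and 3.88-fold above it in control lymphoma. The lower end was Apex1 (4.03 ± 0.573), Ung (3.92 ± 1.17), Exo1 (1.61 ± 0.39) and Apex2 (1.58 ± 0.353) CPM per kilobase in shTet2 cells, where Apex1 overlapped Ung and Exo1 overlapped Apex2. In control cells it was Apex1 (3.76 ± 0.712), Ung (1.95 ± 0.255), Apex2 (1.56 ± 0.207) and Exo1 (0.792 ± 0.332), where Ung overlapped Apex2. Over the 545 exon bases that Apex1 does not share, it would read 10.5 ± 1.49 CPM per kilobase in shTet2, 9.81 ± 1.86 in control lymphoma, 24 ± 1.69 in KO and 28.1 ± 1.27 in WT, above Ung in each group. By its mean it would then also stand above Neil1 and Polh in control lymphoma, below only Msh6. Its control libraries, at 7.88 to 11.9, would overlap those of Neil1 and Polh. The order given thus depends on the length used, in control cells and, for Apex1 and Ung, in both GC B groups. Apex2 was divided by 8744 exon bases, the longest of the 7. Undivided, it averaged 13.6 CPM in control lymphoma, against 5.35 for Apex1, 5.01 for Ung and 4.36 for Exo1. In WT it averaged 16.7 CPM, against 15.3 for Apex1. Its low place rests on that length in each group. Whether all those exons are used in these cells was not tested.

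**Figure D1:**
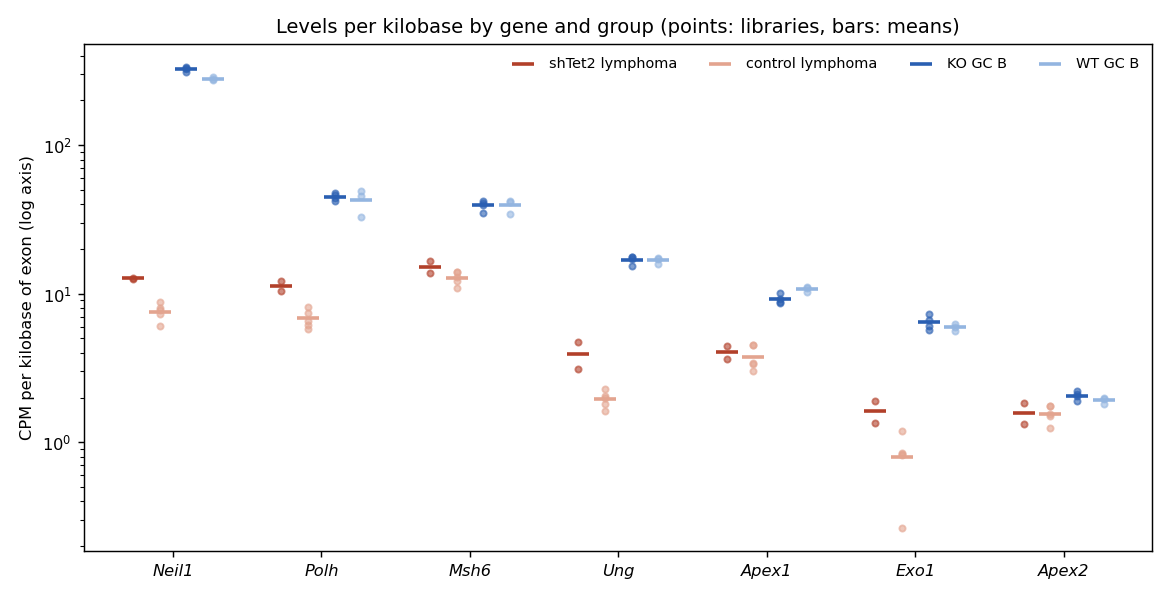
CPM per kilobase of exon (log axis) of each gene in shTet2 lymphoma, control lymphoma, KO GC B and WT GC B libraries; points are libraries and bars are group means. Neil1 leads in both GC B groups at 324 in KO and 280 in WT, Msh6 leads in both lymphoma groups, and Apex2 is the gene whose 4 means lie nearest each other.

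The first comparison asks whether the genes differ between lymphoma cells labelled shTet2 and their controls. The uracil glycosylase Ung, the oxidised-base glycosylase Neil1 and the polymerase Polh were higher in shTet2 cells, by 1.98-fold, 1.66-fold and 1.63-fold. None of the 7 was called lower. Apex1, Apex2, Msh6 and Exo1 did not pass the test. Of the 7, 3 were called higher at an adjusted p under 0.05 and 0 lower, against 1.84% and 0.742% of the 12797 genes tested, and 2.58% called in either direction. The median log2 difference of the 7 was 0.70, and that of all genes tested -0.00. The 2 groups did not overlap for 4 of the 7, against 21% of all genes tested. An unadjusted p under 0.05 was found for 4 of the 7, all higher, and for 2447 of the 12797 genes tested. DESeq2 called 3 of the 7 and 593 of all genes, and limma-voom 2 of the 7 and 250 of all genes.

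In base excision repair, Ung had 7.93 and 12.2 CPM in shTet2 libraries, against 5.27, 5.12, 4.64, 5.87 and 4.14 CPM in control lymphoma libraries. Both shTet2 libraries lay above every control, although they differed from each other by more than the controls did. The log2 difference was 0.99 (SE 0.23, adjusted p = 0.0405), on 97 and 116 reads in shTet2 and 14 to 51 reads in controls. Neil1 had 23.5 and 23.9 CPM in shTet2, against 15, 14.6, 11.3, 13.6 and 16.4 CPM in controls. Its shTet2 libraries were nearly equal and above all controls, with a log2 difference of 0.73 (SE 0.15, adjusted p = 0.0282). The endonuclease genes overlapped the controls. Apex1 had 5.15 and 6.3 CPM in shTet2, against 4.29, 4.75, 6.46, 4.83 and 6.41 CPM in controls (log2 difference 0.05, SE 0.24, adjusted p = 0.987). Apex2 had 16 and 11.7 CPM in shTet2, against 15.2, 11, 13.1, 15.4 and 13.5 CPM in controls (-0.01, SE 0.18, adjusted p = 0.992), with 1 shTet2 library above every control and the other within their range.

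In mismatch repair, Msh6 had 58.4 and 70.2 CPM in shTet2, against 55.2, 46.8, 59.9, 51.3 and 59 CPM in control lymphoma. One shTet2 library fell within the controls, and the log2 difference of 0.21 (SE 0.12) had an adjusted p of 0.344. Exo1 had 7.35 and 10.4 CPM in shTet2, against 4.68, 1.46, 4.55, 4.57 and 6.54 CPM in controls. The groups did not overlap and the log2 difference was 0.93 (SE 0.32), but its adjusted p was 0.14, on 4 to 50 reads in the controls. Polh had 31.2 and 26.7 CPM in shTet2, against 15.8, 16.8, 19.1, 14.9 and 20.8 CPM in controls. Both shTet2 libraries were above all controls, with a log2 difference of 0.70 (SE 0.15, adjusted p = 0.0296).

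**Figure D2:**
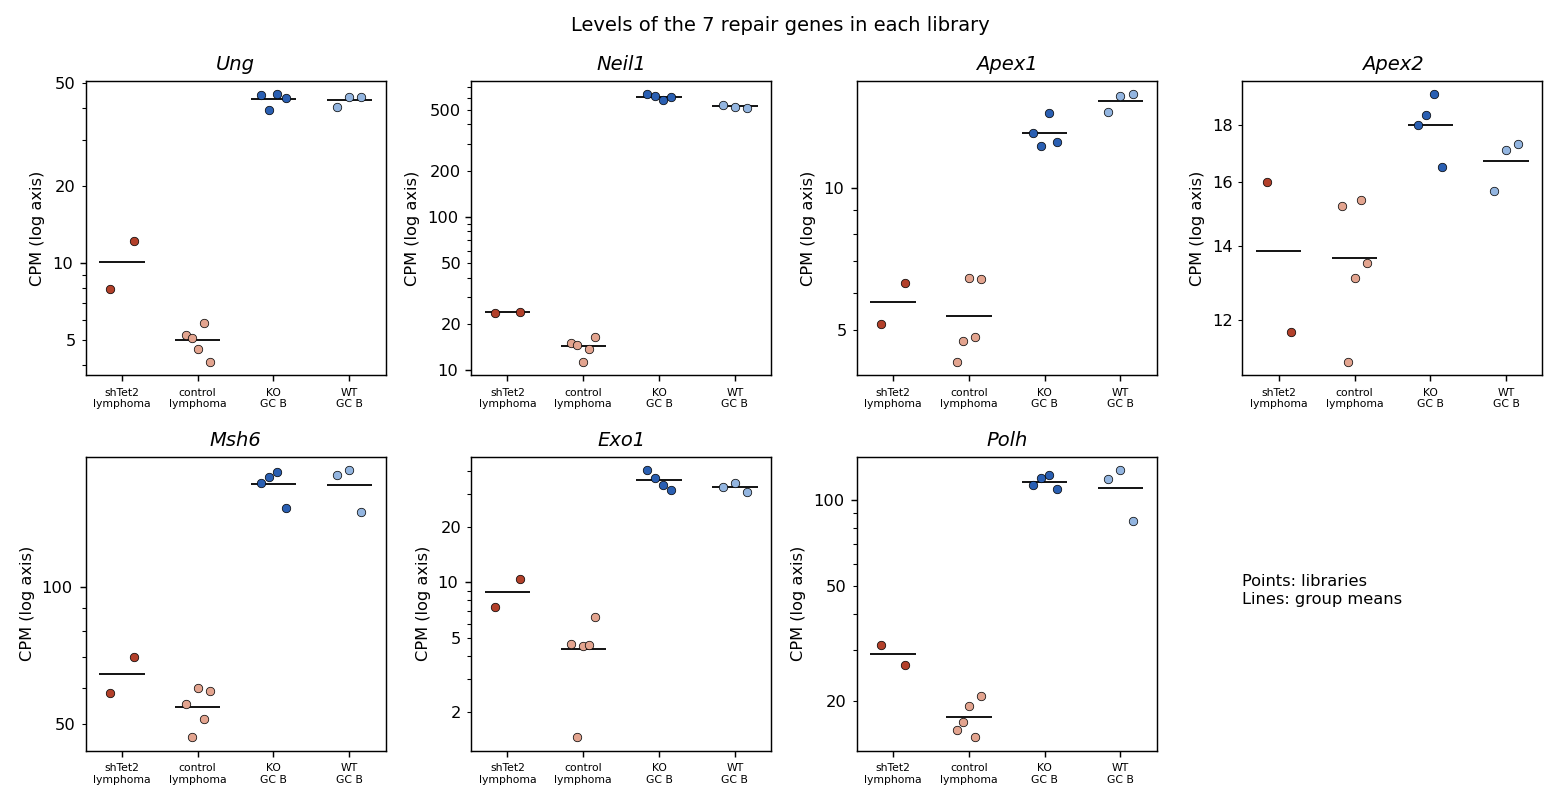
CPM of each of the 7 genes (log axis, a separate scale per gene) in shTet2 lymphoma, control lymphoma, KO GC B and WT GC B libraries; points are libraries and lines are group means. The shTet2 points lie above all control points for Ung, Neil1, Polh and Exo1, while the lymphoma points of Apex1 and Apex2 mix.

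The 3 calls depended on which libraries entered the fit. With shTet2 replicate 2 left out, Ung stood at a log2 difference of 0.65 (adjusted p = 0.395), and its adjusted p was 0.0911, 0.0907, 0.117, 0.0631 and 0.0808 with control replicates 1 to 5 left out in turn. It stayed past the threshold without shTet2 replicate 1 (0.00257), a fit in which the 1 remaining library is assumed to vary like the controls. Neil1 missed the threshold without shTet2 replicate 2 (adjusted p = 0.098) and without control replicates 1 to 4 (0.0665, 0.0659, 0.0738 and 0.0644), and passed it without shTet2 replicate 1 (0.0137) or control replicate 5 (0.0301). Polh missed it without control replicates 1 to 4 (0.0787, 0.075, 0.0656 and 0.0608), and passed it without shTet2 replicate 1 (0.0393), shTet2 replicate 2 (0.0308) or control replicate 5 (0.0271). Exo1 passed with shTet2 replicate 1 left out (0.0365) and with no other library left out, and it also passed with no filter on low counts (0.0376) and in 1 model of all 14 libraries (0.0229). All 3 called genes kept a positive difference in each of these fits, from 0.65 to 1.26 for Ung, 0.65 to 0.80 for Neil1 and 0.57 to 0.81 for Polh. Over all genes, the number called was 330 with every library and between 100 and 2481 with 1 left out.

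**Figure D3:**
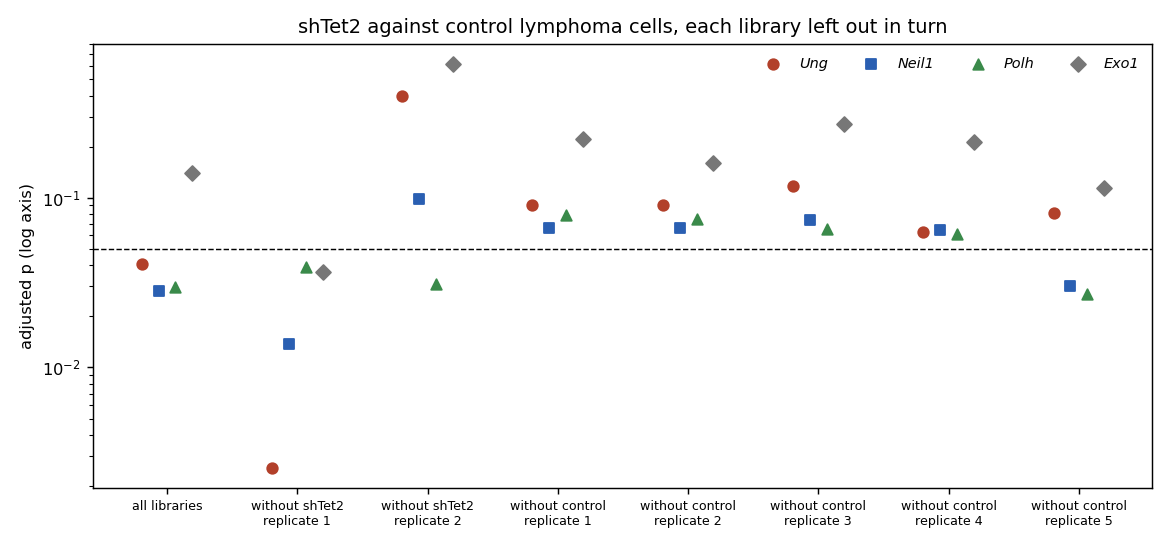
Adjusted p (log axis) of Ung, Neil1, Polh and Exo1 in shTet2 against control lymphoma cells with all libraries and with each left out in turn; the dashed line is 0.05. The 3 called genes lie just under the line with all libraries, at 0.0405 for Ung, 0.0282 for Neil1 and 0.0296 for Polh, and every single omission except that of shTet2 replicate 1 lifts at least 1 of them above it.

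Other measures moved in the same libraries. Dividing cell markers summed to 795 and 1177 CPM in shTet2, against 249 to 454 CPM in controls, and 4 of the 7 were called higher (median log2 difference 0.97). Of 7 GC B cell markers tested, 2 were higher and 0 lower (median 1.90). Of 5 plasma cell markers, 2 were higher, with sums of 760 and 457 CPM in shTet2 and 329 to 469 CPM in controls. Myeloid markers summed to 44.7 and 150 CPM in shTet2 and 42.3 to 52.5 CPM in controls, with 0 of 6 called. The higher dividing cell sum and the higher myeloid sum were both those of shTet2 replicate 2, and the higher plasma cell sum that of replicate 1. The share of structural RNA was lower in both shTet2 libraries than in every control, as given above. The part of any of these in the differences of Ung, Neil1 and Polh was not tested.

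**Figure D4:**
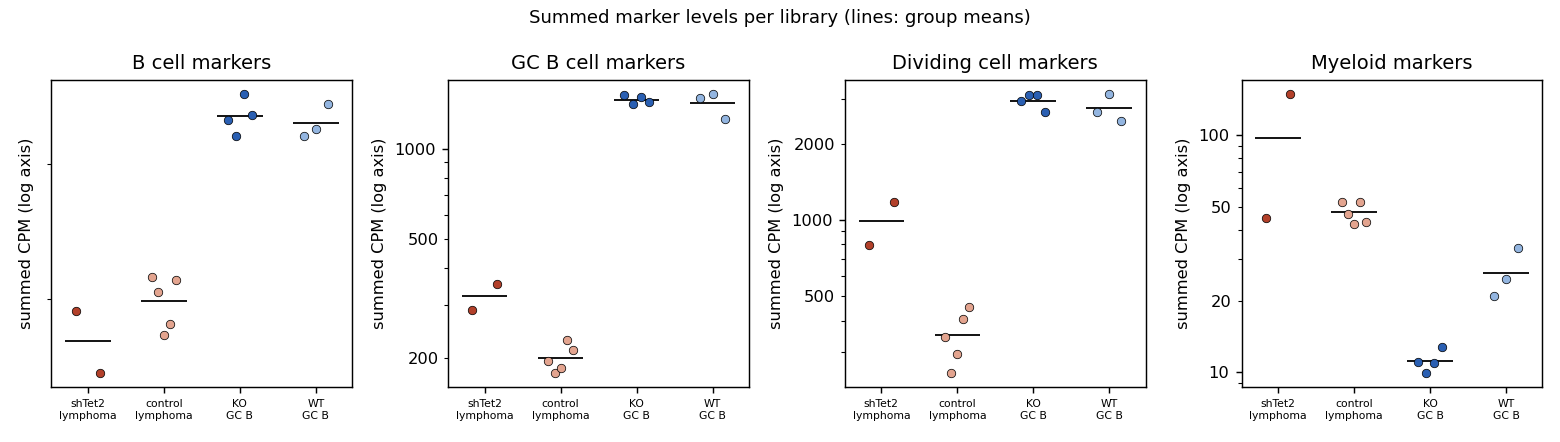
Summed CPM (log axis) of B cell, GC B cell, dividing cell and myeloid markers in shTet2 lymphoma, control lymphoma, KO GC B and WT GC B libraries; points are libraries and lines are group means. Dividing cell markers are at 795 and 1177 CPM in shTet2 against at most 454 CPM in control lymphoma, and myeloid markers at no more than 12.8 CPM in KO against at least 21 CPM in WT.

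Of the 77 other genes of these pathways found in the tables, in 6 lists, 75 were tested in lymphoma cells, and 6 were called higher and 0 lower in shTet2 (median log2 difference 0.08; 23 with an unadjusted p under 0.05). Dut, whose enzyme breaks down dUTP and so keeps uracil out of new DNA, had 15.8 ± 4.35 CPM in shTet2 and 7.25 ± 1.24 CPM in controls (log2 difference 1.08, SE 0.20, adjusted p = 0.019). Fam72a, known in mouse B cells to lower the UNG protein, had 2.57 ± 0.973 CPM in shTet2 and 0.722 ± 0.233 CPM in controls (1.90, SE 0.41, adjusted p = 0.0325). Both belong to the list of 16 AID partners and uracil entry genes, in which 2 were called. Among other DNA glycosylases 2 of 7 tested were called: Mbd4, which acts on T or U opposite G, at 42 ± 7.54 CPM in shTet2 and 26.5 ± 3.29 CPM in controls (0.64, SE 0.14, adjusted p = 0.0327), and Neil3, a relative of Neil1, at 4.56 ± 1.13 CPM in shTet2 and 1.21 ± 0.629 CPM in controls (1.89, SE 0.43, adjusted p = 0.0391). Of the 10 genes that act after the glycosylase, 1 was called, the DNA ligase gene Lig1, at 42.4 ± 8.14 CPM in shTet2 and 20.3 ± 4.72 CPM in controls (1.02, SE 0.19, adjusted p = 0.0192). Of 11 translesion synthesis genes, 1 was called, Polq, the gene of DNA polymerase theta, at 19.1 ± 3.38 CPM in shTet2 and 10.6 ± 1.33 CPM in controls (0.82, SE 0.17, adjusted p = 0.0254). None of 12 mismatch repair genes and none of 19 genes of switch break signalling and end joining was called by edgeR's test (2 in each list had an unadjusted p under 0.05). All 6 calls were lost without shTet2 replicate 2, with adjusted p at most 0.338, and also without control replicate 3. By other tools, Fam72a was not called by DESeq2 (adjusted p = 0.0601) or limma-voom (0.0529), nor Mbd4 by limma-voom (0.0556). Without control replicate 1, all but Dut were lost, and without control replicate 2 all but Dut and Lig1. Fam72a, Mbd4 and Neil3 were lost without control replicate 4, and Fam72a also without control replicate 5.

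The second comparison asks the same of normal GC B cells labelled KO and WT. None of the 7 genes was called in either direction by edgeR's test, against 6.49% of the 13600 genes tested. Log2 differences ran from -0.28 to 0.16, with SEs of 0.08 to 0.11 and a median of 0.02 beside 0.01 over all genes. An unadjusted p under 0.05 was found for 1 of the 7, Apex1, and for 2700 of the 13600 genes tested. DESeq2 called 0 of the 7 and 1266 of all genes, and limma-voom 0 of the 7 and 793 of all genes. The groups did not overlap for 2 genes, Apex1 and Neil1, against 20.2% of all genes tested.

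Among the base excision genes, Ung had 45.1, 39.5, 45.3 and 43.9 CPM in KO, against 40.4, 44.2 and 44.4 CPM in WT (log2 difference -0.04, SE 0.08, adjusted p = 0.867). Neil1 had 629, 615, 579 and 606 CPM in KO, against 536, 522 and 516 CPM in WT. Every KO library was above every WT library, but the log2 difference of 0.16 (SE 0.08) had an adjusted p of 0.272. Apex1 had 13.1, 12.3, 14.4 and 12.5 CPM in KO, against 14.5, 15.7 and 15.8 CPM in WT. Here every KO library was below every WT library, and the log2 difference of -0.28 (SE 0.10, unadjusted p = 0.0168) had an adjusted p of 0.134. Apex2 had 18, 18.4, 19.2 and 16.5 CPM in KO, against 15.7, 17.1 and 17.3 CPM in WT (0.06, SE 0.10, adjusted p = 0.812), and the groups overlapped.

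The mismatch branch was as close. Msh6 had 169, 174, 178 and 149 CPM in KO, against 176, 180 and 146 CPM in WT (log2 difference -0.05, SE 0.09, adjusted p = 0.83). Exo1 had 40.4, 36.7, 33.4 and 31.5 CPM in KO, against 32.7, 34.6 and 30.8 CPM in WT (0.07, SE 0.10, adjusted p = 0.761). Polh had 113, 119, 122 and 109 CPM in KO, against 118, 127 and 84.7 CPM in WT (0.02, SE 0.11, adjusted p = 0.946). For both Msh6 and Polh, WT replicate 4 was the lowest WT library, and for Msh6 KO replicate 5 lay beside it.

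Of 76 other pathway genes tested in GC B cells, 1 was called higher and 1 lower in KO (median log2 difference 0.03). Poli, the gene of DNA polymerase iota, an error-prone enzyme, had 32.9 ± 0.719 CPM in KO and 23.7 ± 1.32 CPM in WT (log2 difference 0.42, SE 0.09, adjusted p = 0.00653). H2afx, the histone variant phosphorylated beside DNA breaks, had 266 ± 21.3 CPM in KO and 332 ± 6.28 CPM in WT (-0.37, SE 0.08, adjusted p = 0.0132). Both calls held with each library left out (adjusted p at most 0.049 for Poli and 0.0493 for H2afx), but that of H2afx was lost in 1 model of all libraries (adjusted p = 0.177). None of the 12 mismatch repair genes, 16 AID partners and uracil entry genes, 8 other glycosylases or 10 later base excision genes was called by edgeR's test (5 of these had an unadjusted p under 0.05). Apobec1, which encodes a related cytosine deaminase, had 213 ± 12.2 CPM in KO and 168 ± 14.4 CPM in WT, with a log2 difference of 0.29 (SE 0.09) and an adjusted p of 0.0563. Apobec1 was called in 2 of 8 alternative fits and in 0 of 7 fits with 1 library left out (adjusted p at most 0.209). Myeloid markers summed to 9.94 to 12.8 CPM in KO and 21 to 33.3 CPM in WT, with 6 of 6 tested called lower (1 of the 8 found had no counts in WT), while 0 of 7 dividing cell and 0 of 7 GC B cell markers were called. The part of the myeloid markers in the values of GC B cells was not tested.

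The effects of the Tet2 label in the 2 sets of libraries were compared as KO minus WT less shTet2 minus control. Kind of cell, knock-out against knock-down, count table, depth and structural RNA content all differ between the sets and cannot be told apart. Ung (-0.99, SE 0.20, adjusted p = 0.00597) and Neil1 (-0.55, SE 0.15, adjusted p = 0.0414) differed, both more positive in lymphoma cells, 2 of 7 against 3.39% of the 15441 genes tested called in that direction and 4.99% called in all. Polh (-0.64, SE 0.19, adjusted p = 0.0587) and Exo1 (-0.79, SE 0.27, adjusted p = 0.107) did not pass. The other values were -0.28 (SE 0.23) for Apex1, -0.23 (SE 0.16) for Msh6 and 0.10 (SE 0.19) for Apex2. Without shTet2 replicate 2 the value for Ung was -0.63 (adjusted p = 0.158), and the call held in the other 13 such fits. Neil1 kept its call in 3 of 14 fits, without KO replicate 2 (0.0364), shTet2 replicate 1 (0.0447) or control replicate 5 (0.0229), and missed it with any other library left out, at adjusted p of 0.0521 to 0.194. Polh passed without WT replicate 4 (-0.80, adjusted p = 0.00834) or control replicate 5 (0.0415), and Exo1 without shTet2 replicate 1 (0.0261) or control replicate 5 (0.0444). Of 77 other pathway genes, 0 were called higher and 7 lower, and these included Dut (-1.02, adjusted p = 0.00599), Fam72a (-1.72, adjusted p = 0.0118), Neil3 (-1.67, adjusted p = 0.0124), Lig1 (-0.94, adjusted p = 0.00951), Polq (-0.66, adjusted p = 0.0463) and Mbd4 (-0.59, adjusted p = 0.0492). With 1 library left out, Dut, Fam72a, Neil3 and Lig1 were lost without shTet2 replicate 2 and held in the other 13 fits, while Polq and Mbd4 each held in 4 of 14. By limma-voom, Lig1 was called (adjusted p = 0.0179), and Dut (0.0511), Fam72a (0.17), Neil3 (0.0659), Polq (0.127) and Mbd4 (0.1) were not. With structural RNA rows removed, Polq (0.0509) and Mbd4 (0.0544) were not called. This contrast uses the same libraries as both comparisons above.

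**Figure D5:**
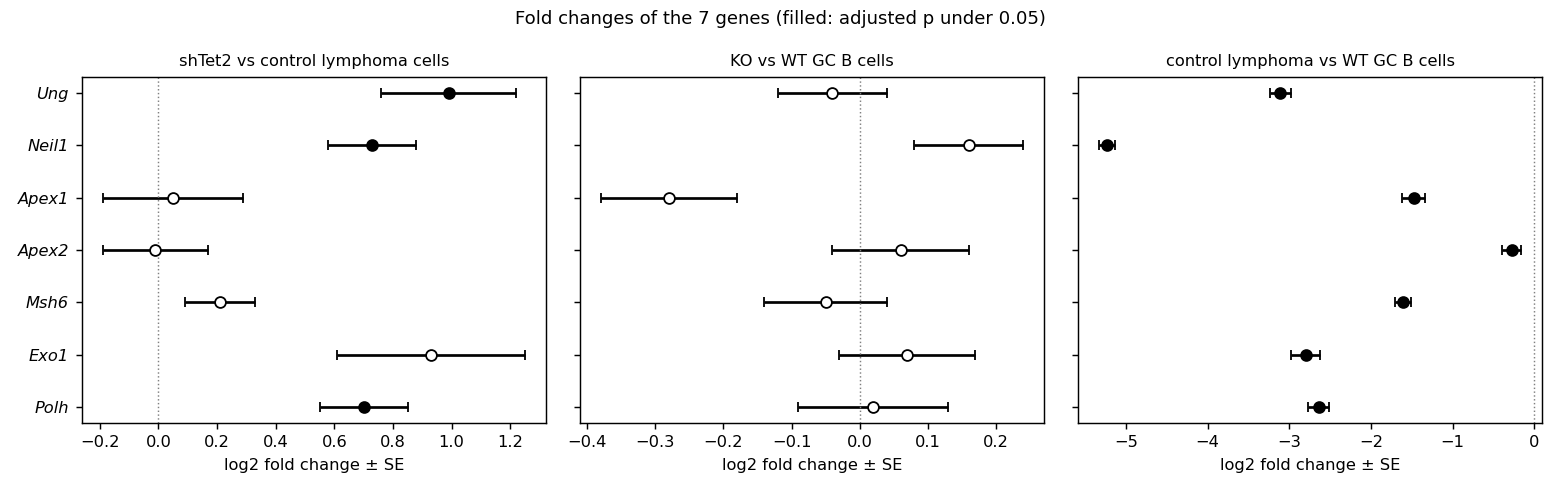
Log2 fold change with its SE for each of the 7 genes in shTet2 against control lymphoma cells, KO against WT GC B cells, and control lymphoma against WT GC B cells; filled points have an adjusted p under 0.05, and each panel has its own scale. Ung, Neil1 and Polh are filled in the first panel, none in the second, and all 7 in the third, from -5.23 for Neil1 to -0.28 for Apex2.

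The last comparison sets control lymphoma libraries against WT GC B cell libraries, both labelled Tet2 wild-type. All 7 genes were lower in the lymphoma libraries, by 1.21-fold to 37.4-fold. Cell origin, count table, depth and structural RNA content all differ between these groups and cannot be told apart, and 80.7% of the 15441 genes tested were called, 40.2% higher and 40.4% lower, so the count of 7 is read against that. The median log2 difference of the 7 was -2.64, beside -0.03 over all genes, and median-of-ratios scaling moved the median of all genes by 0.14. The groups did not overlap for any of the 7, as for 74.5% of all genes.

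The range within the pathway was wide. Neil1 averaged 14.2 ± 1.92 CPM in control lymphoma and 525 ± 10.1 CPM in WT GC B cells, 37.4-fold lower (log2 difference -5.23, SE 0.10, adjusted p = 1.89e-18). Ung averaged 5.01 ± 0.655 CPM in control lymphoma and 43 ± 2.24 CPM in WT, 8.66-fold lower (-3.11, SE 0.13, adjusted p = 3.82e-14). The exonuclease gene Exo1 was 6.96-fold lower (-2.80, SE 0.18, adjusted p = 2.06e-11) and the polymerase gene Polh 6.22-fold lower (-2.64, SE 0.13, adjusted p = 1.88e-13). The mismatch-binding gene Msh6 was lower by 3.05-fold (-1.61, SE 0.10, adjusted p = 9.35e-12), at 54.4 ± 5.47 CPM in control lymphoma and 167 ± 18.1 CPM in WT. The 2 endonuclease genes differed least. Apex1 was 2.79-fold lower (-1.48, SE 0.14, adjusted p = 7.67e-09), and Apex2, at 13.6 ± 1.81 CPM in control lymphoma and 16.7 ± 0.861 CPM in WT, 1.21-fold lower (-0.28, SE 0.12, adjusted p = 0.045). The call of Apex2 was lost under median-of-ratios scaling (-0.14, adjusted p = 0.306) and with a filter at 1 CPM (0.0756). It was also lost by DESeq2 (adjusted p = 0.314) and limma-voom (0.0545). It held with structural RNA rows removed (0.0186) and with no filter (0.0115). With 1 library left out it was lost in 10 of 14 fits, those without any KO or WT library or control replicate 2, 3 or 5 (-0.34 to -0.23 over all 14, adjusted p at most 0.151). The other 6 held in every fit tried.

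Of the 77 other pathway genes, 52 were lower and 15 higher in control lymphoma (median log2 difference -1.17). All but 1 of 10 genes that act after the glycosylase were called, 8 lower, among them the scaffold gene Xrcc1 at 26.2 ± 1.15 CPM in control lymphoma and 283 ± 4.03 CPM in WT (-3.43, adjusted p = 3.15e-17) and Lig1 (-3.86, adjusted p = 5.51e-15), and 1 higher, the ligase gene Lig3 (0.78, adjusted p = 3.45e-05). Of 12 mismatch repair genes 10 were lower, including Rfc3 of the clamp loader (-3.16, adjusted p = 1.85e-14), and 2 higher. Among AID partners and uracil entry genes 12 of 16 were lower, Dut by -4.65 (adjusted p = 5.36e-16), and 2 higher. Of 9 other glycosylases 5 were lower, with Neil3 at -4.82 (adjusted p = 1.14e-12) and Mbd4 at -2.34 (adjusted p = 1.54e-13), and 1 was higher, Tdg (0.60, adjusted p = 0.0023). The translesion list had 8 of 11 lower, and 2 higher, Polk among them, the gene of DNA polymerase kappa (0.84, adjusted p = 2.67e-05). The list of switch break signalling and end joining was the most even, with 9 of 19 lower and 7 higher. In it H2afx was lower (-4.73, adjusted p = 7.62e-16) and Prkdc, which encodes the catalytic subunit of the DNA-dependent protein kinase, was higher, at 103 ± 4.96 CPM in control lymphoma and 48 ± 2.98 CPM in WT (1.11, adjusted p = 3.46e-10). Dividing cell markers summed to 249 to 454 CPM in control lymphoma and 2449 to 3149 CPM in WT, with 7 of 7 lower (median -3.13), and GC B cell markers were lower for 7 of 7. T cell markers summed to 6.24 to 26.8 CPM in control lymphoma and 0.873 to 1.92 CPM in WT, with 6 of 6 higher. The part of these in the differences above was not tested.

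Once the mean of each table was taken out, the members moved together to different degrees over the 14 libraries, which share depth and composition differences. Group means were not taken out, so the differences of shTet2 from control and of KO from WT remain in each r. These r values therefore partly restate the comparisons above. Pearson's r of log2 CPM was highest for Exo1 with Msh6 (0.77), Neil1 with Ung (0.76), Polh with Neil1 (0.75) and Polh with Msh6 (0.71), and lowest for Apex2 with Apex1 (-0.31). The genes most like each member, among 8941 searched with a mean of at least 2 CPM in each table, were Aldh18a1 (0.96) and Pbk (0.96) for Ung, Phf19 (0.98) and Nek2 (0.97) for Neil1, and Kif22 (0.99) and Cenpn (0.99) for Exo1. For Msh6 they were Plk4 (0.91) and Ccdc25 (0.90), and for Polh Dck (0.91) and Casp8ap2 (0.91). The nearest to Apex1 were Sec22b (0.83) and Agtpbp1 (0.82), and to Apex2 Pcid2 (0.93) and Ackr4 (0.85). The best of so many is high by selection, so these r values are descriptions only.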

How the data were processed

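Stranded mRNA libraries were made with a TruSeq kit from Trizol and RNeasy extracts, per the labels' protocols. The submitters' processing notes name STAR 2.3.0e as aligner and GRCm38.p3 as genome. What the authors deposited are unnormalised whole-number counts per gene name, from featureCounts 1.5.1 on GENCODE exons without strand or paired-end options, per the file headers.

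From these counts, edgeR 4.0.16 in R 4.3.3 was run on all genes as a robust quasi-likelihood test, after TMM scaling and the default expression filter, and p-values were adjusted by Benjamini-Hochberg with a threshold of 0.05. Every adjusted p in the text is from this test unless another tool is named. KO was compared with WT in 7 libraries, shTet2 with control in 7, and the other contrasts in 1 model of 14. Each fit was scaled over its own libraries, while CPM was scaled over all 14. Ratios of CPM can therefore differ slightly from the log2 differences of the 7-library fits. All 7 members passed the filter in each fit. Log CPM used a prior count of 2. CPM per kilobase divides by the files' exon length. DESeq2 1.42.0, limma-voom (limma 3.58.1), median-of-ratios scaling, removal of structural RNA rows (10 of 15 listed names found), other filters, a replicate block and leaving out each library were alternatives. The code was tested on simulated data. Replicates were no copies, since each pair differed beyond counting error.

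The members, the 6 pathway lists and the markers were chosen with earlier results of these data known. Named genes were all members, up to 3 per list, direction and comparison by smallest p, and the 2 most correlated genes per member. The gene of AID itself is not reported here.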

Additional observations from a re-analysis of the deposited data

Results flagged for a closer look

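The Ung difference between the effects, KO minus WT less shTet2 minus control, was -0.99 on the log2 scale, by a test of that difference itself (adjusted p = 0.00597). Kind of cell cannot be told apart there from knock-out against knock-down, count table, depth and structural RNA content. Ung changed by -0.04 with KO and by 0.99 with shTet2. The same test gave -0.55 for Neil1 (adjusted p = 0.0414). In the 7-library fits, Neil1 changed by 0.16 with KO and by 0.73 with shTet2, and in 1 model by 0.21 and 0.76. No library was flagged as an outlier in the 14 groups of 4 or 5 libraries that were examined. Even so, Exo1 in control lymphoma replicate 2 had 1.46 CPM on 4 reads, against 4.55 to 6.54 CPM in the other controls. Groups of 2 or 3 libraries were not examined, and there Polh had 84.7 CPM in WT replicate 4, against 118 and 127 CPM.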

How the results depend on the processing

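The shTet2 group has 2 libraries, and counts in lymphoma cells are low: Ung rests on 14 to 51 reads in a control library and Exo1 on 4 to 50. Of the 7 members, 0 were called in KO against WT under any of the alternatives run. Genes called in KO against WT were 883, 1365 with no filter and 570 with the replicate block. In shTet2 against control they were 330, with 593 by DESeq2, 782 with no filter, 840 in 1 model of all libraries and 4 with the replicate block. For the difference of effects they were 771, with 1198 by DESeq2 and 256 with the block. Members called in shTet2 against control were 3, with 4 with no filter or in 1 model of all libraries, where Exo1 was added, 2 by limma-voom and 0 with the block. In the difference of effects, 2 members were called, 4 by DESeq2, 1 by limma-voom and 0 with the block. The call lost by limma-voom there was that of Neil1 (adjusted p = 0.0511). With no filter the count stayed at 2, but Neil1 was lost (0.0682) and Polh was called (0.0394). With 1 library left out, genes called ranged from 607 to 944 in KO against WT, 100 to 2481 in shTet2 against control (highest without shTet2 replicate 1, lowest without control replicate 3), 283 to 2001 for the difference and 11710 to 13285 in control lymphoma against WT. Members called then ranged from 0 to 0, 0 to 4, 0 to 4 and 6 to 7 in the same order. limma-voom also lost Ung in shTet2 against control (adjusted p = 0.0654).

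Replicate numbers are shared by only 2 pairs in each comparison. Same-numbered libraries did not deviate together from their group means (correlations 0.03, -0.03, -0.04 and -0.01). The deviations of the 2 shTet2 libraries mirror each other, so the 2 lymphoma values are not separate checks. Whether same-numbered samples share an animal or a batch is therefore not decided by these values. With the block, shTet2 against control gave 0.86 for Ung (adjusted p = 0.52), 0.64 for Neil1 (0.459) and 0.80 for Polh (0.33), the difference of effects gave -0.94 for Ung (0.171) and -0.47 for Neil1 (0.47), and H2afx in KO against WT had an adjusted p of 0.0925. The block also ended the calls of all 6 other pathway genes in shTet2 against control (adjusted p 0.225 for Lig1 to 0.567 for Fam72a) and, in the difference of effects, those of Dut (0.0933), Fam72a (0.393), Lig1 (0.0941), Mbd4 (0.244) and Polq (0.5), while Neil3 kept its call (0.0471). The block could not be fitted for control lymphoma against WT.

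Small differences that were not called changed sign. In KO against WT, Msh6 stood at 0.07 with the block and 0.00 in 1 model, and ranged from -0.14 to 0.00 with 1 library left out, Ung stood at 0.01 in 1 model, and Polh ranged from -0.13 to 0.13 with 1 library left out. In shTet2 against control, Apex2 stood at 0.01 with no filter or in 1 model, and 0.05 with the block, and with 1 library left out Apex2 ranged from -0.27 to 0.20 and Apex1 from -0.11 to 0.18. Apex2 in the difference of effects ranged from -0.07 to 0.36 with 1 library left out. The cause of these changes was not tested.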
